A study of Mus musculus with 24 samples.

Results

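The experiment described here compared the nucleus accumbens of Vdr-/- mice after an acute injection of morphine with that of Vdr-/- mice injected with PBS. Its members are the 6 nucleus accumbens libraries of those mice, 3 per injection, out of 24 libraries in the series, and every gene in the table that holds them. The morphine mice (numbered 2.0, 2.1 and 2.2) received 5 mg/kg intraperitoneally, and the controls (7, 8 and 9) received PBS. All 6 mice had a C57BL/6 background, lacked the vitamin D receptor in every tissue from birth and ate a chow enriched in calcium, lactose and phosphate, so neither group has a working receptor. Vdr+/+ mice enter only in a separate comparison. The series places collection at 90 min after injection, while the study's tissue methods name an earlier collection for injected controls, and which holds for the PBS libraries is not given in the sources used here. Each library came from bilateral punches through 1 mouse's accumbens, core and shell together. Age and sex are not in the labels. In all 6 libraries the Y-linked Ddx3y was between 984 and 1127 normalised counts, and Xist was between 0 and 5.62.

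Morphine acts on the mu opioid receptor, a Gi-coupled receptor that lowers cyclic AMP and neuronal firing. In the ventral tegmental area (VTA) it silences inhibitory neurons and so frees dopamine neurons, which release dopamine in the accumbens. There, medium spiny neurons, the GABA-releasing projection cells of the striatum, carry D1 or D2 dopamine receptors. When they are driven, cyclic AMP and calcium activate the transcription factor CREB and MAP kinases, which switch on immediate early genes such as Fos within minutes and effector genes such as Arc and Bdnf soon after. Opioids also release glucocorticoid hormone and shift body temperature, both of which have well-known target genes in brain.

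Reads on genes ranged from 9328615 in morphine mouse 2.2 to 18902995 in PBS mouse 9, and Vdr held 0 to 9.36 normalised counts in the 6 libraries, too few reads to check the genotype. Values are normalised counts throughout, and log2 fold changes are morphine minus PBS on log2(value + 1), with their SE. Of 15820 genes tested with limma, 3018 passed an adjusted p of 0.05 (19.1%), 1573 higher (9.94%) and 1445 lower (9.13%) after morphine. Most changes were small: the median absolute log2 fold change of the called genes was 0.36, and 295 reached an absolute value of 1, of which 233 were higher and 62 lower. The 3 morphine libraries lay all above the 3 PBS libraries in 18.5% of the genes tested and all below them in 19.4%. DESeq2 on the recovered reads called 2045 genes. Without PBS mouse 9 limma called 1566, without morphine mouse 2.1 it called 1633 and without morphine mouse 2.2 it called 1965. Each library is a different mouse, so the p-values measure the spread between mice of these 2 groups.

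The 10 largest rises held 3 mitochondrially encoded genes, mt-Co2, mt-Atp6 and mt-Co3, described with their list, and several genes better known from the septum, the preoptic area and the hypothalamus. Irs4, an adaptor of insulin and leptin receptor signalling (chrX:141710998-141725263 on GRCm38), had values of 252, 386 and 326 after morphine and 13.6, 80.5 and 65.9 after PBS (log2 fold change 2.88 ± 0.48, adjusted p = 0.00229). Prlr, the prolactin receptor, measured 157, 258 and 251 after morphine and 17.8, 67.4 and 53.2 after PBS (2.4 ± 0.38, adjusted p = 0.00168). The morphine libraries were far above the PBS libraries in both genes, and PBS mouse 7 was the lowest of the 6. Gabre and Gabrq, which encode the epsilon and theta subunits of GABA-A receptors and both lie on the X chromosome, rose by 2.46 ± 0.44 (adjusted p = 0.00337) and 2.26 ± 0.54 (adjusted p = 0.0146). Igsf1 and Asb4 also belonged to the 10 largest rises, at 2.23 ± 0.45 and 2.26 ± 0.39. Gabrq did not pass without morphine mouse 2.1 or 2.2 (adjusted p = 0.071 and 0.061).

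Zic4, a zinc-finger factor of the developing and adult septum (chr9:91362413-91389348), had values of 264, 233 and 296 after morphine and 67.1, 90.8 and 46.4 after PBS (log2 fold change 1.98 ± 0.20, adjusted p = 0.000183). It belonged to a list of 12 markers of septum, diagonal band and preoptic neurons, of which 9 rose and none fell (75% called, against 19.1% of all genes). The list's median was 1.05 against -0.01 over all genes tested. Its rises numbered 6 without mouse 2.1, 2.2 or 9, 7 without 7, 11 without 8 and 5 in edgeR with 12 libraries. Zic1 measured 1538, 1551 and 2019 after morphine and 448, 669 and 417 after PBS (1.75 ± 0.15, adjusted p = 0.000131), and Zic2 rose by 1.72 ± 0.18. Ngfr, the p75 neurotrophin receptor of basal forebrain cholinergic neurons, measured 152, 230.1 and 253 after morphine and 37.4, 149 and 30.4 after PBS (1.88 ± 0.45, adjusted p = 0.0144), and PBS mouse 8 was close to the lowest morphine library. Ngfr did not pass without mouse 2.1, 2.2 or 9 (adjusted p = 0.065, 0.063 and 0.057). The summed value of the list was 4492 to 5659 after morphine and 1864 to 2955 after PBS, and PBS mouse 8 held the highest PBS value.

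All 12 markers of meningeal and vascular fibroblasts rose, where 9.94% of all genes rose, with a median of 1.4. Their summed values were 1615 to 2219.9 after morphine and 836 to 915 after PBS. Col3a1, a fibrillar collagen, measured 78.1, 36.8 and 78.1 after morphine and 13.6, 20.6 and 8.44 after PBS (2.10 ± 0.35, adjusted p = 0.0022), and Fmod, a collagen-binding proteoglycan, 179.7, 185 and 266 after morphine and 46.7, 64.6 and 47.3 after PBS (1.96 ± 0.18, adjusted p = 0.000131). Without mouse 2.2, which held the highest fibroblast sum, 7 of the 11 then tested passed. Values were low, and 6 of the 12 had a mean value of at least 50. Of 5 tested choroid plexus markers Prlr and Otx2 rose, and the defining markers Ttr, Folr1 and Kcne2 were under the mean of 10 needed for testing. The rises of septal and fibroblast markers moved with the injection, as did the falls in striatal genes described further on, and their part in any result here was not tested. In bulk tissue, more or fewer cells of a type and more or less RNA per cell cannot be told apart.

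**Figure D1:**
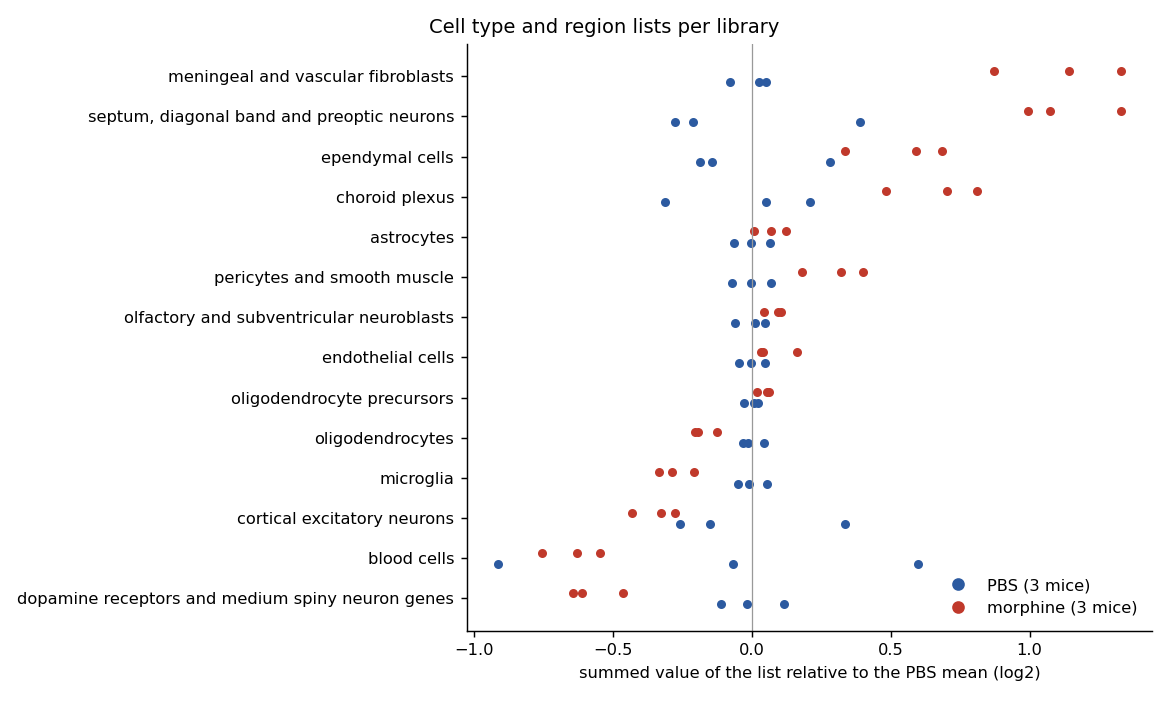
Summed normalised counts of each cell type or region list in the 6 libraries, as log2 relative to the mean of the 3 PBS libraries (blue, PBS mice; red, morphine mice; 1 point per mouse). The septal and fibroblast sums of the morphine mice lie above those of all PBS mice, the sum over medium spiny neuron genes lies below, and blood cell genes spread most among the PBS mice.

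Immediate early transcription factors are the first genes an active neuron switches on. Of 28 tested members, 11 rose after morphine and none fell (39.3%, where 9.94% of all genes rose), with a median of 0.46, and 27 of the 28 had a fold change above 0. Fos, the AP-1 subunit used as a standard marker of neuronal activation (chr12:85473890-85477273), had values of 439, 357 and 329 after morphine and 180.0, 131 and 216 after PBS (log2 fold change 1.11 ± 0.16, adjusted p = 0.0011). Every morphine library was above every PBS library. Fosb, whose truncated product builds up under repeated drug exposure, measured 663, 471 and 492 after morphine and 309, 233 and 277 after PBS (0.98 ± 0.13, adjusted p = 0.000688). Nr4a3, an orphan nuclear receptor induced by cyclic AMP, showed the largest rise among those that passed, from 714, 466 and 419 after PBS to 1652, 1247 and 1015 after morphine (1.30 ± 0.19, adjusted p = 0.00109). Morphine mouse 2.0 was the highest of the 3 in Fos, Fosb and Nr4a3.

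Fosl2, another AP-1 subunit, rose by 1.19 ± 0.14, Klf4, a zinc-finger factor, by 1.12 ± 0.20, and Nfil3, a repressor of D-box genes, by 1.06 ± 0.14 (adjusted p = 0.000393, 0.00355 and 0.000632). Npas4, a factor that answers calcium entry in neurons, had values of 649, 679 and 582 after morphine and 269, 362 and 432 after PBS (0.87 ± 0.14, adjusted p = 0.00162). Nr4a1 measured 1834, 1429 and 1163 after morphine and 980.0, 593 and 922 after PBS (0.84 ± 0.18, adjusted p = 0.00845). Other well-known members did not pass. Egr1, a zinc-finger factor of synaptic activity, had overlapping values of 4771, 3971 and 3918 after morphine and 4411, 2898 and 3457 after PBS (0.25 ± 0.12, adjusted p = 0.18), and Junb measured 679.9, 542 and 522 after morphine and 489, 373 and 496 after PBS (0.36 ± 0.12, adjusted p = 0.0534). Both passed when PBS mouse 7 was left out (adjusted p = 0.0078 and 0.037), and 18 members of the list then rose. Without PBS mouse 8 the list's median was 0.26, with 11 rises and 1 fall. Without morphine mouse 2.0 it was 0.32, with 10 rises. In limma without a variance trend 8 members rose. PBS mouse 7 was the highest of the PBS mice in Egr1, Nr4a3 and Nr4a1.

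**Figure D2:**
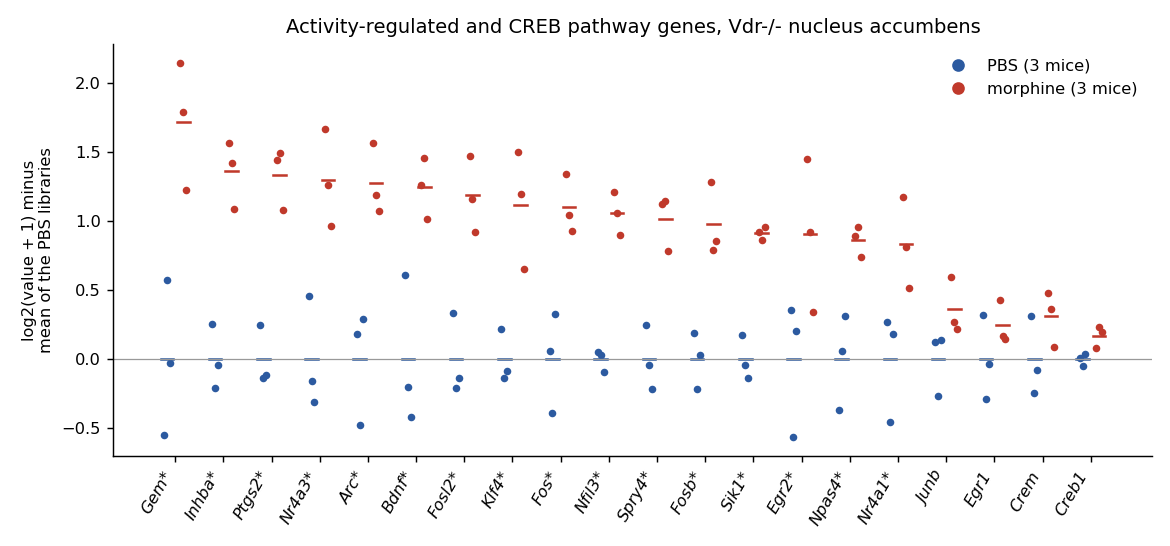
Activity-regulated and CREB pathway genes in the 6 libraries, as log2(value + 1) minus the mean of the 3 PBS libraries (blue, PBS; red, morphine; 1 point per mouse, bars are group means, an asterisk marks an adjusted p under 0.05). The morphine points of Gem, Inhba, Ptgs2, Nr4a3 and Arc lie well above the PBS points, and those of Egr1 and Crem overlap them.

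Among 34 activity-induced effectors, 17 rose and 6 fell (67.6% called, against 19.1% of all genes), with a median of 0.29. Without mouse 2.1 there were 12 rises and 4 falls, and in edgeR with 12 libraries 10 and 3. Arc, which drives removal of AMPA receptors from synapses (chr15:74669083-74672570), had values of 2520.4, 1939.5 and 1794 after morphine and 966, 611 and 1044 after PBS (log2 fold change 1.28 ± 0.17, adjusted p = 0.000728). Bdnf, the ligand of the TrkB receptor, measured 278, 318 and 234 after morphine and 177, 100.2 and 86.1 after PBS (1.25 ± 0.22, adjusted p = 0.0028). Inhba, the activin beta A subunit, rose from 262, 190.1 and 214 after PBS to 654, 593 and 470.2 after morphine (1.36 ± 0.13, adjusted p = 0.000162). In Arc, Bdnf and Inhba the groups did not overlap. Ptgs2, the inducible cyclooxygenase, rose by 1.34 ± 0.14 and the small GTPase Gem by 1.72 ± 0.32 (adjusted p = 0.000249 and 0.00442). The members that fell were Plk2, Rasgrp1, Rgs4, Tac1, Penk and Pdyn, several of which are also genes of striatal projection neurons and are described with them.

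In the feedback arm of the MAP kinase pathway, 8 of 14 phosphatase, Sprouty and Spred genes rose and none fell (57.1%, against 19.1% of all genes), with a median of 0.29. Spry4, an inhibitor of receptor tyrosine kinase signalling, measured 345, 349.9 and 272 after morphine and 188, 154 and 136 after PBS (1.02 ± 0.13, adjusted p = 0.000555). Dusp4, a nuclear MAP kinase phosphatase, rose by 0.75 ± 0.15 and Spred3 by 0.56 ± 0.06 (adjusted p = 0.00565 and 0.000287), while Spry2 (0.21 ± 0.10, adjusted p = 0.139) and Dusp8 (-0.03 ± 0.05, adjusted p = 0.727) did not pass. The count fell to 5 without mouse 2.0, 2.1, 8 or 9 and to 4 without 2.2.

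In the CREB pathway list, 7 of 21 members rose and 1 fell (38.1%, against 19.1% of all genes). Sik1, a CREB-induced kinase that switches off CREB coactivators, had values of 646, 622 and 665 after morphine and 386, 332 and 309.9 after PBS (log2 fold change 0.91 ± 0.08, adjusted p = 0.000131), with a clear gap between the groups. Its relative Sik2 rose by 0.33 ± 0.07 (adjusted p = 0.00656). Creb1 itself measured 969, 1075 and 1050.1 after morphine and 921, 884 and 939 after PBS (0.17 ± 0.06, adjusted p = 0.0543) and did not pass, nor did Crem (0.31 ± 0.15, adjusted p = 0.172). The protein kinase A subunits Prkacb and Prkar1b differed by 0.02 ± 0.05 and 0.04 ± 0.05 and did not pass. The member that fell was Ppp1r1b. Without mouse 2.1 the count of rises was 3, and without 2.2, 7 or 9 it was 4.

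Because CREB binds the cyclic AMP response element (CRE), its letters were searched in RefSeq promoters (GRCm38.p6, from 250 bases before to 50 after a start). The CRE core, TGACG or its complement CGTCA on either strand, was found in 17 of the 22 early factors and effectors called higher that have a promoter entry (77.3%). It was found in 17 of the 26 tested members of those lists with an entry that were not called higher (65.4%), and in 34.2% of the 11489 tested genes with an entry. Among all called rises the share was 32.9% and among all called falls 32.0%. The whole CRE, TGACGTCA, was in 13.6% of the 22, and 3.49% of all. The AP-1 letters TGANTCA were in 9.09% and 6.02%. A whole CRE also holds both forms of the core. Single promoters were taken from the 6 largest rises with an entry in the early factor, effector and glucocorticoid lists. The promoters of 4 of the largest rises with an entry are shown because they hold the core, in capitals and 5′ to 3′, at chr4:48045055-48045354 (Nr4a3, plus strand), chr2:109692186-109692485 (Bdnf, plus strand, 1 of 7 starts and the only one with a core), chr1:150099781-150100080 (Ptgs2, plus strand) and chr4:55532426-55532725 (Klf4, minus strand).
Nr4a3: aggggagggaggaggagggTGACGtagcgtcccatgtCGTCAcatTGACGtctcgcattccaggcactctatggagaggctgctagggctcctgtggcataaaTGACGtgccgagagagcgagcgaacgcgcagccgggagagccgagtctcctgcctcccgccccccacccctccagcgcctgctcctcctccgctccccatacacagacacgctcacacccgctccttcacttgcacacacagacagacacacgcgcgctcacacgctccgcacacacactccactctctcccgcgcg
Bdnf: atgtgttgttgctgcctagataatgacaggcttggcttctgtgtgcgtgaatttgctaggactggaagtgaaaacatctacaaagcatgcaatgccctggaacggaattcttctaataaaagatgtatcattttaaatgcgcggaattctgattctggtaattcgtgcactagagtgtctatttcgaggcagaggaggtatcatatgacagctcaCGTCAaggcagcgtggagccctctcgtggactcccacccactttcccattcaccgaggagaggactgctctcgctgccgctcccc
Ptgs2: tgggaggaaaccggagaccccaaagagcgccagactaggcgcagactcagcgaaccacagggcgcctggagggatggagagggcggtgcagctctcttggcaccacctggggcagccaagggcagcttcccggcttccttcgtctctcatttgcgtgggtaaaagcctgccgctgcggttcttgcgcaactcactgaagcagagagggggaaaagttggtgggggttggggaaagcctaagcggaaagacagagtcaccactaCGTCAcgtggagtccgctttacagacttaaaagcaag
Klf4: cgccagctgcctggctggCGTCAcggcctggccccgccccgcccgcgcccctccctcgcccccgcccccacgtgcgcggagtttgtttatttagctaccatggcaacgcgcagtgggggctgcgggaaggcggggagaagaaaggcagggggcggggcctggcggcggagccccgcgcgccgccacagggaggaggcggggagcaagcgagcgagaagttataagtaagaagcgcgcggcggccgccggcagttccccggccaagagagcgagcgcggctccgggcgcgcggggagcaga
Nr4a3 held 4 cores, the nearest beginning 147 bases before the start, and Bdnf held 1 that begins 35 bases before it. Inhba and Fosl2, the other 2 of the 6 largest rises with an entry in those lists, held none in this window. A match gives the letters only and says nothing of binding.

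Genes of medium spiny neurons fell together. Of 27 tested dopamine receptor and medium spiny neuron genes, 23 fell and 1 rose, where 9.13% of all genes fell, and the median was -0.50. Between 20 and 24 members fell when any 1 library was left out. Drd1 measured 2063, 1800.0 and 1891 after morphine and 2808, 2662 and 2868 after PBS (log2 fold change -0.54 ± 0.06, adjusted p = 0.000249), and Drd2 measured 1756, 1471 and 1669.9 after morphine and 2394, 2231 and 2729.5 after PBS (-0.59 ± 0.08, adjusted p = 0.00075). Neither receptor overlapped between the groups. Ppp1r1b, which encodes DARPP-32, the phosphatase inhibitor of dopamine signalling, had values of 7743, 6494 and 6419 after morphine and 12175, 11525 and 13703 after PBS (-0.86 ± 0.08, adjusted p = 0.000133). The largest fall was in Scn4b, a sodium channel beta subunit enriched in striatum (chr9:45138395-45154152), from 11279, 8936 and 12466 after PBS to 5322, 4899 and 4639 after morphine (-1.13 ± 0.10, adjusted p = 0.000131).

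Adora2a, the adenosine receptor of D2 neurons, fell by 0.91 (SE 0.08) on the log2 scale and Rasd2, a striatal GTPase, by 0.80 (SE 0.09). Drd3, the dopamine receptor of the ventral striatum, measured 157, 133 and 186 after morphine and 142, 187 and 150.3 after PBS and did not pass (-0.01 ± 0.14, adjusted p = 0.968). The member that rose, named after its values were seen, was Isl1, a factor of D1 neurons and of septal and cholinergic neurons, at 281, 269 and 258 after morphine and 147, 192 and 169.7 after PBS (0.67 ± 0.11, adjusted p = 0.00162). The list's summed value was 96296 to 109145 after morphine and 139466 to 163224 after PBS. Drd1, Drd2 and Ppp1r1b, the defining markers of the labelled region, were abundant in every library, with 1471 in Drd2 of morphine mouse 2.1 as the lowest value.

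Enzymes and regulators of G protein signalling, several of them enriched in striatal neurons, changed in both directions. Of 26 adenylyl cyclases and phosphodiesterases, 7 fell and 3 rose (38.5% called, against 19.1% of all genes). Pde10a, the striatal phosphodiesterase, measured 11796, 10844 and 10699 after morphine and 18355, 16745 and 19566 after PBS (-0.71 ± 0.07, adjusted p = 0.000131), Pde1b changed by -0.69 ± 0.07 and Adcy5, the main striatal cyclase, by -0.56 ± 0.07. In contrast Adcy8, a calcium-stimulated cyclase, had values of 271, 329 and 362 after morphine and 158, 244 and 143 after PBS (0.85 ± 0.17, adjusted p = 0.00683), and Adcy7 rose by 0.82 ± 0.20 but did not pass without mouse 2.1 (adjusted p = 0.068). Of 16 RGS genes, which shorten G protein signals, 7 fell and 1 rose (50% called). Rgs9, an RGS of dopamine and opioid receptor signalling, measured 4724, 4141 and 4104 after morphine and 6058, 6072 and 6613 after PBS (-0.53 ± 0.06, adjusted p = 0.000327), Rgs4 changed by -0.45 ± 0.06 and Rgs2 did not pass (0.14 ± 0.06, adjusted p = 0.12). The RGS gene that rose, Rgs5, is a pericyte marker (0.37 ± 0.08).

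Of 7 tested opioid receptor and peptide genes, 4 fell and 1 rose (71.4% called, against 19.1% of all genes). Whether the 4 falls were separate from those of medium spiny neuron genes was not tested. Oprm1, the receptor on which morphine acts, had overlapping values of 170.5, 217 and 223 after morphine and 169, 226 and 251 after PBS and did not pass (log2 fold change -0.07 ± 0.15, adjusted p = 0.773). Oprk1, the kappa receptor, fell from 928, 939 and 1108 after PBS to 537, 619 and 695 after morphine (-0.69 ± 0.09, adjusted p = 0.000768). Oprd1, the delta receptor, measured 310.2, 346 and 359 after morphine and 493, 416 and 461 after PBS (-0.43 ± 0.08, adjusted p = 0.00525). The groups did not overlap in either receptor. Penk, the enkephalin precursor of D2 neurons, measured 7526, 6606 and 7029 after morphine and 10410.0, 10390.0 and 12418 after PBS (-0.65 ± 0.07, adjusted p = 0.000315). Pdyn, the dynorphin precursor of D1 neurons, fell less, with 2051, 1751 and 1909 after morphine and 2161, 2096 and 2508 after PBS (-0.24 ± 0.07, adjusted p = 0.0407), and did not pass without mouse 2.1, 2.2 or 9 (adjusted p = 0.16, 0.099 and 0.16). Pnoc, the nociceptin precursor, rose from 57.7, 64.6 and 46.4 to 126, 149 and 179 (1.41 ± 0.17, adjusted p = 0.000343), while its receptor gene Oprl1 did not pass (0.25 ± 0.09, adjusted p = 0.0696) except without mouse 8 (adjusted p = 0.0085). Pomc was under the mean of 10 needed for testing.

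**Figure D3:**
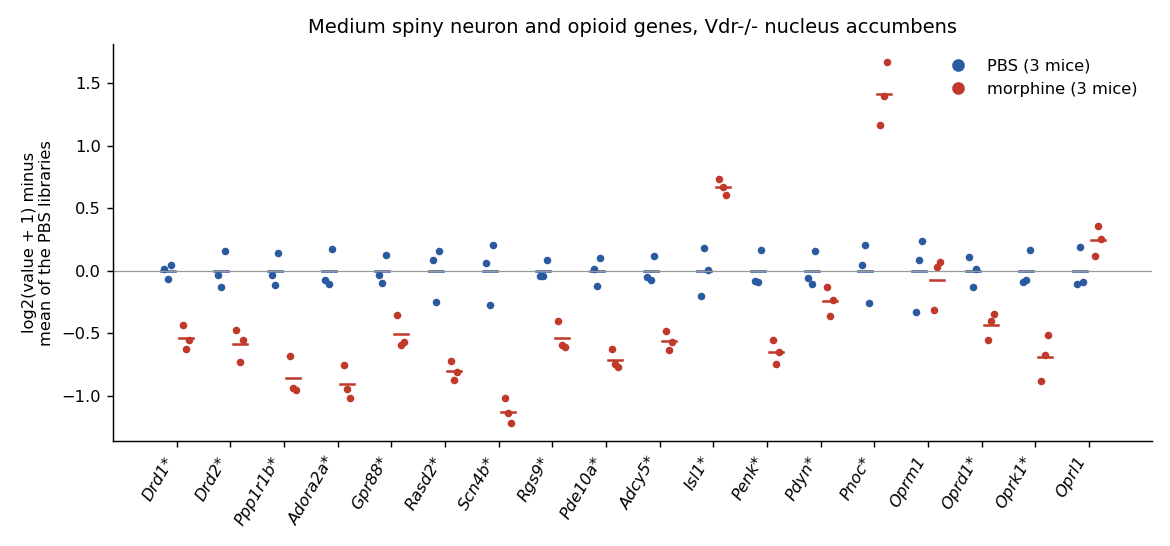
Medium spiny neuron and opioid genes in the 6 libraries, as log2(value + 1) minus the mean of the 3 PBS libraries (blue, PBS; red, morphine; 1 point per mouse, bars are group means, an asterisk marks an adjusted p under 0.05). Drd1, Drd2, Ppp1r1b, Scn4b and Penk are lower in all 3 morphine mice, Isl1 and Pnoc are higher, and the Oprm1 points of the groups overlap.

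Ion channel and receptor families were mixed. Of 57 potassium channel genes, 9 rose and 16 fell (43.9% called, against 19.1% of all genes). Kcnh3 measured 1444, 1384 and 1268 after morphine and 2077, 1964 and 2020.4 after PBS (-0.57 ± 0.06, adjusted p = 0.000177), with no overlap between the groups. Of the 18 calcium and sodium channel alpha subunits, 3 rose and 3 fell (33.3%). The T-type calcium channel Cacna1g measured 2066, 2105 and 2120.2 after morphine and 1449.6, 1419 and 1129.6 after PBS (0.66 ± 0.08, adjusted p = 0.000393). Of the 15 GABA-A subunits, 4 rose, with Gabre and Gabrq first, and 2 fell (40% called). Gabrd, the extrasynaptic delta subunit, fell from 1143, 1054 and 1142 to 774, 659.6 and 648 (-0.68 ± 0.07, adjusted p = 0.000248). Of 10 AMPA and NMDA receptor subunits, 2 rose and 1 fell (30% called). Grin3a rose by 0.55 ± 0.08, Grin1, the obligate NMDA subunit, fell by 0.27 (SE 0.05), and Gria2 did not pass (-0.07 ± 0.05, adjusted p = 0.383). Rises among potassium channels numbered 3 without mouse 2.1 and 4 without 2.2 or 9, and those among GABA-A subunits 2 without 2.1. Of the calcium and sodium channel falls, there was 1 without mouse 2.0, 7 or 9 and 0 without 2.2, and of the glutamate receptor rises there was 1 without 2.1, 2.2, 7 or 9.

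Of 15 other neuropeptide genes, 4 rose and 5 fell (60% called, against 19.1% of all genes). Nts, neurotensin, measured 259, 233 and 332 after morphine and 82.4, 191 and 154 after PBS (1.01 ± 0.24, adjusted p = 0.0154) and did not pass without mouse 2.2 (adjusted p = 0.072). Cartpt, the CART peptide of the accumbens shell, measured 382, 297 and 351 after morphine and 193, 198 and 255 after PBS (0.68 ± 0.12, adjusted p = 0.00353). Of 12 neurotrophin and GDNF genes 6 rose and 1 fell (58.3%). Ret, the GDNF receptor kinase, rose from 97.7, 130.2 and 94.6 to 338, 306 and 444 (1.74 ± 0.15, adjusted p = 0.000131). Its co-receptor Gfra1 rose by 0.33 ± 0.06. Of 8 endocannabinoid genes, Cnr1, the CB1 receptor, rose by 0.32 ± 0.07 and 3 enzymes fell (50%). Of 18 histone deacetylases and sirtuins, 3 rose, among them Hdac4 at 1346, 1188 and 1291 after morphine and 932, 806 and 865 after PBS (0.56 ± 0.07, adjusted p = 0.000374) and Sirt1 (0.41 ± 0.08), and 2 fell, 27.8% in all. Of 7 tested genes of vitamin D metabolism and receptor partners, Pdia3 rose and Rxrb and Rxrg fell (42.9%), with 1 fall without mouse 2.0, 2.1, 2.2 or 9 and 0 in limma without a variance trend or edgeR with 12 libraries. Rxrg, a retinoid X receptor of striatum, changed by -0.45 ± 0.09, and Rxra did not pass (0.05 ± 0.06, adjusted p = 0.588). Several counts changed when 1 library was left out, as did the share of all genes called. That share was 9.9% without mouse 9, 10.3% without 2.1, 12.4% without 2.2, 13.5% without 2.0, 14.7% without 7 and 19.8% without 8. Among neuropeptides there were 2 falls without mouse 2.1 or 9, with 2 rises without 2.0, 2.1, 2.2 or 9, among endocannabinoid genes 1 fall without 2.1, 2.2 or 9, among histone deacetylases and sirtuins 1 without 2.0 or 2.2 and 0 without 2.1, 7, 8 or 9, and among neurotrophin genes 0 without 2.1, 2.2, 7 or 9.

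Of 27 tested heat-shock genes, which encode chaperones of stressed cells, 15 rose and none fell (55.6% called, against 19.1% of all genes), with a median of 0.27. Hspa1a and Hspa1b, neighbouring and nearly identical genes for inducible HSP70 between which reads cannot be assigned with certainty, measured 72.9, 66.7 and 64.8 after morphine and 21.2, 29 and 25.3 after PBS (1.41 ± 0.19, adjusted p = 0.000634) and 103, 75.3 and 39.9 after morphine and 31.4, 17.8 and 20.3 after PBS (1.55 ± 0.32, adjusted p = 0.00697). Hspa1b varied more among the morphine mice, with mouse 2.2 the lowest. Chordc1, an HSP90 cofactor, rose by 0.50 ± 0.08, while the abundant Hsp90ab1 (-0.04 ± 0.05, adjusted p = 0.629) and Hsp90aa1 (0.10 ± 0.05, adjusted p = 0.211) did not pass. Between 12 and 16 genes of the list rose when any 1 library was left out.

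The mild cold-response gene Cirbp moved the other way, with 463, 475 and 547 after morphine and 866, 819 and 956 after PBS (log2 fold change -0.83 ± 0.08, adjusted p = 0.000134), as did Rbm3, which mild cooling also induces, with 677, 716 and 685 after morphine and 975, 831 and 985 after PBS (-0.42 ± 0.07, adjusted p = 0.00218). In the list of 9 cold-inducible RNA-binding genes 4 fell and none rose (44.4% called, against 19.1% of all genes), and Sf3b1 did not pass (0.05 ± 0.05, adjusted p = 0.433). Without mouse 2.1 or 9 the count was 2, with Cirbp and Rbm3 still past the threshold.

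Of 27 endoplasmic reticulum chaperone and unfolded protein response genes, 14 rose and none fell (51.9% called, against 19.1% of all genes), with a median of 0.24. Hspa5, the chaperone BiP, had values of 4319.9, 4012 and 3722 after morphine and 2531, 2511 and 2357 after PBS (log2 fold change 0.70 ± 0.06, adjusted p = 0.000131), with small spread in both groups. Xbp1, the transcription factor of this response, measured 1209.9, 1051 and 1070.1 after morphine and 769, 811 and 821 after PBS (0.47 ± 0.06, adjusted p = 0.000728), and Pdia4, a disulfide isomerase, rose by 0.53 ± 0.08. Of 19 osmolyte and amino acid transporters, 8 rose and 2 fell (52.6%, against 19.1% of all genes). Slc7a11, the cystine-glutamate exchanger, measured 789, 732 and 706 after morphine and 400.0, 443 and 474 after PBS (0.76 ± 0.07, adjusted p = 0.000177), Slc5a3, the myo-inositol transporter, rose by 0.85 ± 0.12 and Slc38a2, a neutral amino acid transporter, by 0.69 ± 0.11. Of the falls there was 1 without mouse 2.0, 2.1, 2.2, 7 or 9.

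Opioids raise glucocorticoid hormone, whose targets changed here in both directions. Of 35 glucocorticoid-responsive genes, 8 rose and 4 fell (34.3% called, against 19.1% of all genes), with a median of 0.01. The standard reporters Fkbp5, at 943, 1246 and 1206 after morphine and 1042, 1065 and 1122 after PBS (0.06 ± 0.09, adjusted p = 0.666), Per1 (0.15 ± 0.08, adjusted p = 0.205) and Sgk1, at 1663, 1966 and 2130.2 after morphine and 2058, 2333 and 2426 after PBS (-0.25 ± 0.09, adjusted p = 0.0647), did not pass, though Sgk1 passed as lower without mouse 2.2 or 7 (adjusted p = 0.039 and 0.022). Gjb6, an astrocyte connexin, rose from 372, 472 and 420.4 to 809, 762 and 886 (0.96 ± 0.09, adjusted p = 0.000131), Zbtb16 rose by 0.54 ± 0.10, and the metallothionein Mt1 fell from 2081, 1864 and 2252 to 1177, 1365 and 1517 (-0.61 ± 0.09, adjusted p = 0.00109). Without mouse 2.0 or 9 the falls numbered 2.

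Of 21 circadian genes, 8 fell and 2 rose (47.6% called, against 19.1% of all genes). The falls were led by Ciart, a clock repressor, at 199, 209 and 218 after morphine and 357, 338 and 409 after PBS (-0.81 ± 0.09, adjusted p = 0.000279), and by Dbp, an output factor that binds the D-box, at 881, 842 and 879 after morphine and 1525, 1214 and 1496 after PBS (-0.69 ± 0.08, adjusted p = 0.000311). Its relatives Tef and Hlf changed by -0.39 ± 0.05 and -0.42 ± 0.06, while Nfil3, which represses the same D-box sites, was one of the early factors that rose. Nr1d2 did not pass (-0.04 ± 0.04, adjusted p = 0.567). Without mouse 2.0, 2.1 or 9 there was 1 rise. The time from injection to collection may differ between the groups, as stated at the outset, and its part was not tested.

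Several metabolic and immune lists lay near the background, and those of hypoxia and of mitochondrial genes did not. Of 74 nuclear subunits of oxidative phosphorylation, 3 rose and 11 fell (18.9%, against 19.1% of all genes), and of 74 ribosomal protein genes 7 rose and 8 fell (20.3%). Of 27 cholesterol synthesis genes 14.8% were called, and Hmgcs1, an early enzyme of the pathway, did not pass (-0.01 ± 0.10, adjusted p = 0.938). Of 22 interferon-stimulated genes 22.7% were called and of 18 blood-brain barrier genes 22.2%. Of the 26 hypoxia and glycolysis genes, 2 rose and 6 fell (30.8%). Of the 13 mitochondrially encoded genes, 3 abundant ones fell (1 without mouse 2.1, 2.2 or 9) and 5 with low values rose (61.5% called), mt-Co2 among the 10 largest rises at 78.1, 231 and 236 after morphine and 19.5, 30 and 34.6 after PBS (2.53 ± 0.36, adjusted p = 0.00101), along with mt-Atp6 and mt-Co3 at 2.31 ± 0.35 and 2.07 ± 0.30. These genes have near-identical nuclear copies, so their counts are uncertain, and morphine mouse 2.0 lay well below 2.1 and 2.2 in all 3. The rises were not particular to this comparison. In the Vdr+/+ accumbens and the Vdr-/- VTA, mt-Co2 changed by 2.62 and 3.12, mt-Atp6 by 2.54 and 2.11, and mt-Co3 by 2.21 and 2.59. The abundant mt-Cytb did not pass (-0.26 ± 0.09, adjusted p = 0.0746). Single libraries moved several of these counts: falls in oxidative phosphorylation genes were 3 to 7 without mouse 2.0, 2.1, 2.2, 7 or 9, ribosomal rises were 1 without 2.1 or 2.2, 3 without 7 and 4 without 9, ribosomal falls 2 without 2.1, 2.2 or 9 and 4 without 8, hypoxia falls 1 to 3 without 2.0, 2.1, 7 or 9, and interferon and blood-brain barrier falls 0 or 1 whichever library was left out. Cholesterol synthesis rises, 2 in number, became 5 without mouse 7.

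**Figure D4:**
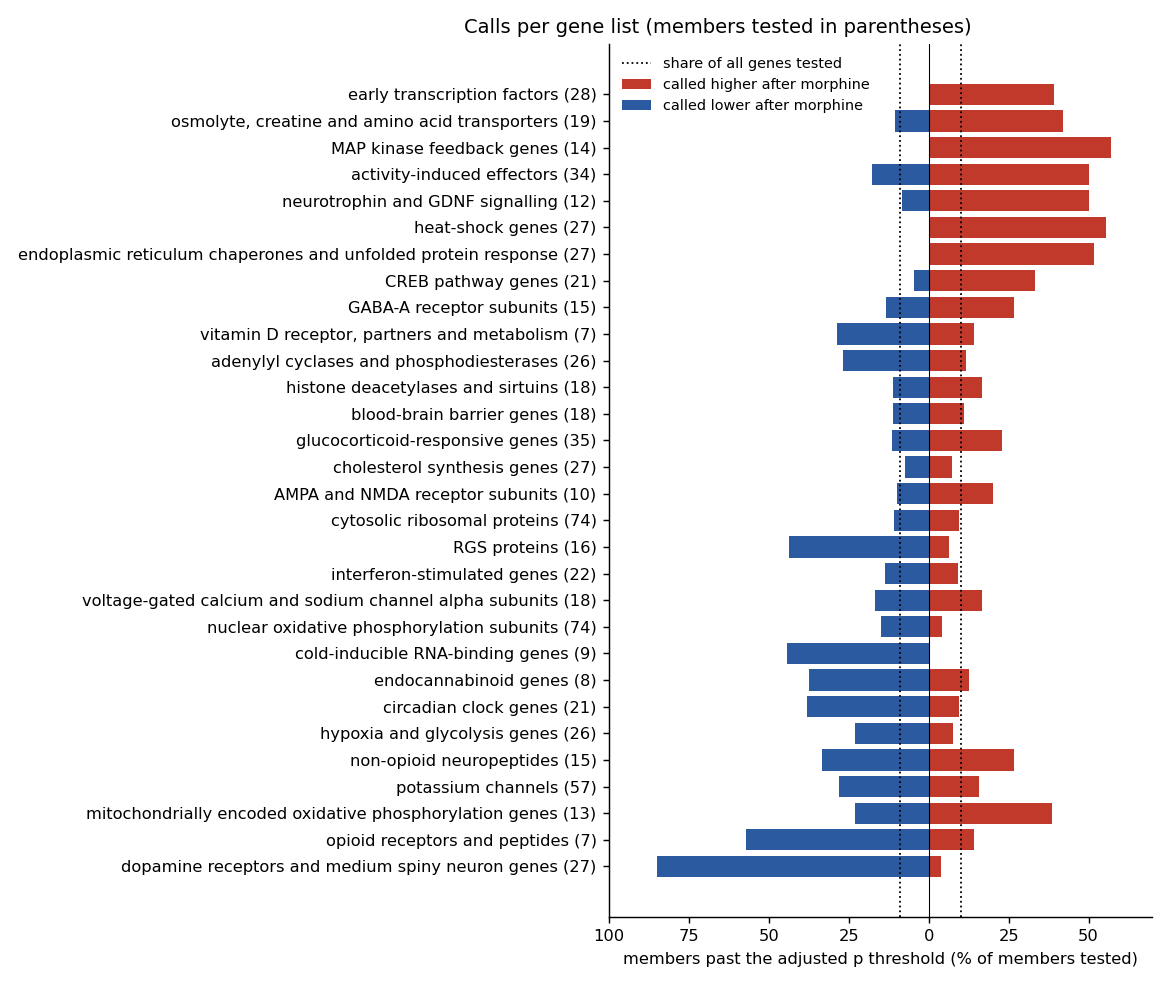
Share of tested members called higher (red, to the right) or lower (blue, to the left) after morphine in each of 30 gene lists, in percent, ordered by median log2 fold change, with dotted lines at the shares of all genes tested (9.94% higher, 9.13% lower). The MAP kinase feedback, heat-shock and endoplasmic reticulum lists reach furthest to the right and the medium spiny neuron list furthest to the left.

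The largest falls outside the striatal list were of mixed kind. Fmo2, a monooxygenase, fell from 153, 110.5 and 159 to 38, 53.9 and 53.2 (-1.52 ± 0.18, adjusted p = 0.000383), and Cd4, a T helper cell receptor also carried by some myeloid cells, fell from 703, 586 and 755 to 282, 232 and 259 (-1.4 ± 0.10, adjusted p = 5.48e-05). In the Vdr+/+ accumbens and the Vdr-/- VTA, Fmo2 changed by 0.59 and -2.12, and Cd4 by -1.34 and -0.05. The Fmo2 difference between genotypes, -2.11 ± 0.60, did not pass in limma (adjusted p = 0.832). Ighm, the IgM heavy chain of B cells, measured 102, 100.1 and 88.1 after morphine and 263, 170.4 and 286 after PBS (-1.27 ± 0.17, adjusted p = 0.000677). The synaptic gene Cplx3 and the kinase gene Wnk4 changed by -1.17 ± 0.21 and -1.08 ± 0.15, and Oacyl, Clec12a and Mhrt by -1.38, -1.14 and -1.16. Mhrt is antisense to Myh7, and whether counting used the strand is not given in the sources used here.

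Glial markers differed by cell type. Of 14 astrocyte markers 7 rose and 1 fell (57.1% called, against 19.1% of all genes), with Gfap, the intermediate filament of reactive and fibrous astrocytes, at 864, 778 and 1092 after morphine and 305, 485 and 342 after PBS (1.28 ± 0.15, adjusted p = 0.000383) and Aqp4, the water channel of their endfeet, at 1462, 1434 and 1402 after morphine and 842, 962 and 975 after PBS (0.63 ± 0.06, adjusted p = 0.000174). The glutamate transporter Slc1a2 did not pass (-0.06 ± 0.08, adjusted p = 0.626). Of 14 microglial markers 7 fell and none rose (50%), with summed values of 5229 to 5701 after morphine and 6375 to 6845 after PBS. Cx3cr1, the fractalkine receptor, measured 676, 625 and 548 after morphine and 841, 833 and 746 after PBS (-0.39 ± 0.08, adjusted p = 0.00656), and P2ry12 changed by -0.50 ± 0.10. Of 14 oligodendrocyte markers 6 fell and 1 rose (50%), with Mog at -0.35 ± 0.06, while Mbp, the myelin basic protein gene, did not pass (-0.16 ± 0.06, adjusted p = 0.0674). Of 8 pericyte and smooth muscle markers 4 rose (50%), with the smooth muscle actin gene Acta2 going from 73.9, 67.4 and 58.3 to 153, 127 and 272 (1.38 ± 0.23, adjusted p = 0.0022), with mouse 2.2 the highest. Of 12 endothelial markers 1 rose and none fell (8.33%, under the share of all genes). Of 12 cortical excitatory markers 3 fell, among them Nrgn and Lamp5, and Rasgrf2 rose (33.3%), with PBS mouse 7 highest in Slc17a7 (15540.0, 8259.7 and 9909 after PBS). The cortical falls became 5 without mouse 8 or 9, and Rasgrf2 did not pass without mouse 2.1, 2.2 or 9. The endothelial rise, Cdh5 (0.36 ± 0.10, adjusted p = 0.0299), was lost without mouse 2.0, 2.1, 8 or 9. Of 8 ependymal markers 4 rose (50%), which became 1 without mouse 2.0, 2.1, 2.2 or 7 and 2 without 8. The hemoglobin genes were uneven among PBS mice, with Hbb-bs at 1889.5, 686 and 1156, and of 5 blood markers 1 fell (20%, close to the share of all genes), which became 4 without mouse 8 and 0 without any other. Of 11 neuroblast markers 3 rose (27.3%), and of 9 oligodendrocyte precursor markers 1 rose (11.1%, under the share of all genes), which became 3 without mouse 8.

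Whether the response depended on genotype was asked by setting the Vdr-/- change against that of Vdr+/+ mice (3 morphine, 3 PBS). The study names the enriched chow for Vdr-/- mice only. Diet may therefore differ with genotype, and its part was not tested. No gene of 15788 passed the test of the difference in limma (0.0%), with 916 at an unadjusted p under 0.05 and a smallest adjusted p of 0.397. None passed in edgeR (890 unadjusted) or DESeq2 (721 unadjusted), and 1 passed in limma without Vdr+/+ PBS mouse 1 and 1 without Vdr+/+ morphine mouse 1.2. Arc rose in Vdr-/- mice and its change in Vdr+/+ mice was -0.01, with a difference of 1.29 ± 0.33. Npas4 (1.01 ± 0.26), Nr4a1 (0.82 ± 0.29) and Fos (0.72 ± 0.30) differed in the same direction, and Sgk1 differed by -0.89 ± 0.24, each with an adjusted p of 0.832. The medians of the early factor list were 0.46 in Vdr-/- and 0.11 in Vdr+/+ mice, and those of the glucocorticoid list 0.01 and 0.45. For the medium spiny neuron list they were -0.50 and -0.55, and for the septal markers 1.05 and 1.04. The difference had a median SE of 0.16 over the genes called in Vdr-/- mice, and a p that misses the threshold does not show that the genotypes responded alike.

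Whether the response belonged to the accumbens was asked within mice, as accumbens minus VTA, in the 3 morphine mice and PBS mice 7 and 9. The morphine effect differed in 726 of 16805 genes (4.32%), more positive in the accumbens for 425 (2.53%) and more negative for 301 (1.79%). The count turned on which mouse was left out, and was 6 without mouse 2.2, 33 without 7, 162 without 2.1, 352 without 9 and 1392 without 2.0. It was 0 in limma without a variance trend (2789 at an unadjusted p under 0.05). In the medium spiny neuron list 11 of 27 members had a more negative effect in the accumbens, with medians of -0.50 there and 0.04 in the VTA. Scn4b, the largest fall of that list, was not among them. It changed by -1.13 in the accumbens and -1.02 in the VTA (adjusted p = 0.462 between regions). Drd1 differed by -1.49 ± 0.15 (adjusted p = 0.00648) and Rasd2 by -0.97 ± 0.07 (adjusted p = 0.00182). The difference in Drd1 was larger than its fall in the accumbens, so its VTA values also enter it. For 4 septal markers the effect was more positive in the accumbens, among them Zic4 (2.37 ± 0.22, adjusted p = 0.00589). Arc differed by 0.91 ± 0.11 (adjusted p = 0.0108), with a change of 0.13 in the VTA.

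For the AP-1 and Nr4a genes the values of both regions stand side by side. Fos changed by 1.11 in the accumbens and 0.68 in the VTA, Fosb by 0.98 and 1.04, and Nr4a3 by 1.30 and 2.05, and none of these passed the test between regions (adjusted p = 0.301, 0.76 and 0.359). Of 27 heat-shock, 9 cold-inducible and 27 endoplasmic reticulum genes tested, none passed it, where 4.32% of all genes did. With so few genes and 3 mice against 2, that does not show that the regions responded alike. Hspa5 changed by 0.70 and 0.59, Cirbp by -0.83 and -0.93, and Xbp1 by 0.47 and 0.45. The within-mouse test leaves out PBS mouse 8, so its estimates are not the plain difference of these values: for Fos it was 0.23 ± 0.11.

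**Figure D5:**
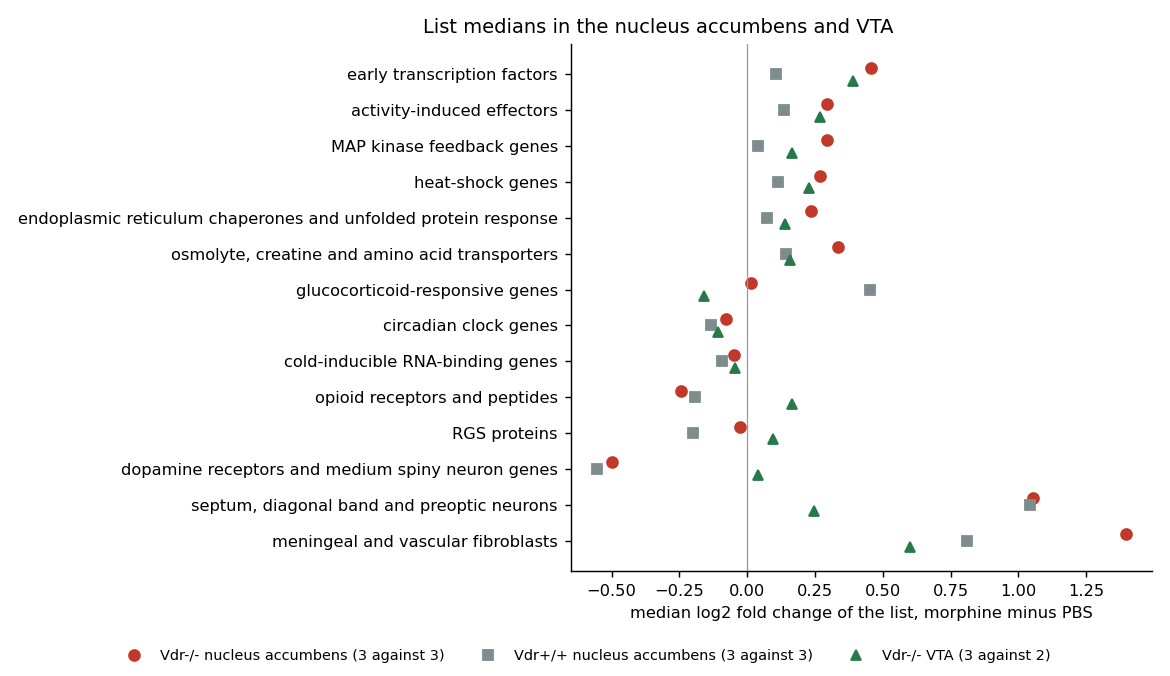
Median log2 fold change, morphine minus PBS, of 14 lists in the Vdr-/- nucleus accumbens (red circles), the Vdr+/+ nucleus accumbens (grey squares) and the Vdr-/- VTA (green triangles). The medium spiny neuron and septal medians lie close together in both genotypes and nearer 0 in the VTA, while those of the early factors, heat-shock and endoplasmic reticulum genes are above 0 in all 3.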

How the data were processed

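Per the labels and the study's methods, mRNA libraries from nucleus accumbens punches were made with a directional kit, and the authors trimmed reads with Trimmomatic 0.36, aligned with STAR 2.4.2a and summarized over GENCODE genes. What was deposited is a signal: normalized counts, in 1 table per pair of groups. In each library 100% of values were whole multiples of 1 read (tolerance 0.01), and the scaling equalled DESeq2's size factors, so reads were recovered. The main test was limma 3.58.1 in R 4.3.3 (empirical Bayes with a variance trend, both sides, Benjamini-Hochberg adjustment, threshold 0.05) on values plus 1 in log2, for genes averaging 10 or more. The code was checked on simulated data. edgeR 4.0.16 and DESeq2 1.42.0 on recovered reads, other filters, pseudocounts, scalings and leaving out each library were alternatives. Genotype dependence used an interaction over 12 libraries, each genotype from its own table. Region dependence used within-mouse differences, without PBS mouse 8, whose VTA library is not in the table of that comparison. Named by rule were the 10 largest rises and falls (mean value at least 50, groups not overlapping, no predicted-gene, small RNA or pseudogene name). Also named were up to 5 called and 2 other members of each of 30 gene and 14 marker lists, and a fixed set. The comparison, members and lists were chosen with earlier results of these data known. Some genes that the rule names are not reported here. Gene positions are from GENCODE M21, and promoters from RefSeq. Figures used Python 3.11.15 and matplotlib 3.10.9.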

Additional observations from a re-analysis of the deposited data

Results flagged for a closer look

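In 10 of the genes named as largest changes or named in every case, the morphine effect differed between accumbens and VTA of the same Vdr-/- mice (limma, adjusted p under 0.05, accumbens minus VTA on the log2 scale). It was higher in the accumbens for Irs4 (2.58 ± 0.55), Prlr (2.42 ± 0.37), Zic4 (2.37 ± 0.22), Igsf1 (1.67 ± 0.35), Arc (0.91 ± 0.11) and Sik1 (0.61 ± 0.13). It was lower there for Cplx3 (-1.79 ± 0.28), Drd1 (-1.49 ± 0.15), Oprk1 (-0.94 ± 0.17) and Oprd1 (-0.70 ± 0.15). The falls of Cplx3, Drd1, Oprk1 and Oprd1 within the accumbens were smaller than these differences, so VTA values also enter them. All 10 kept their sign when any library was left out, but 0 passed without morphine mouse 2.2, 3 without mouse 2.1 or 7, 7 without mouse 9 and 10 without mouse 2.0. Without a variance trend 0 of them passed. The comparison holds 3 mice against 2.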

How the results depend on the processing

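No paired analysis was possible because the morphine and PBS mice carry no shared numbers, and the regions are already compared within mice. The count of 3018 genes called in the Vdr-/- accumbens ranged from 1566 (without PBS mouse 9) to 3133 when 1 library was left out, with 1633 without morphine mouse 2.1 and 1965 without 2.2. It was 1237 in limma without a variance trend and 1196 in edgeR with all 12 accumbens libraries, and DESeq2 gave 2045. The other 7 settings gave 2621 to 3076. The share of calls that were higher lay between 49.4% (quantile normalization) and 54.6% (without PBS mouse 7) over all settings. The cause of these shifts was not tested. Genotype dependence gave 0 genes in every setting, except 1 without Vdr+/+ PBS mouse 1 and 1 without Vdr+/+ morphine mouse 1.2. Region dependence, 726 genes, gave 0 without a variance trend and 36 with no filter on low values, and 6 (without 2.2), 33 (without 7), 162 (without 2.1), 352 (without 9) and 1392 (without 2.0) when a mouse was left out. Of 196 named genes that passed, none changed sign in any setting and 92 passed in every one. Of 704 list medians under alternatives, 59 moved by more than the spread of the list mean between mice. Depth limits genes under 10 reads, such as Vdr, Pomc and most choroid plexus markers.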

Other observations

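The Y RNA gene Rny1, a small RNA that mRNA selection should largely exclude, was picked out after its values were seen. It measured 18.5, 89 and 113 normalised counts after morphine and 1.7, 1.87 and 0.844 after PBS, which stand for at most 2 reads a library. Morphine mouse 2.0 was the lowest of the morphine mice, as it was in mt-Co2 (78.1, 231 and 236) and mt-Atp6 (47.2, 154 and 129.6). Of 8 small nuclear RNA genes tested, 4 were higher after morphine and none lower (limma), where 9.94% of all genes rose and 9.13% fell. Eif2s3y, a Y-linked translation factor gene, fell from 690.4, 667 and 577 to 455, 537 and 474 (limma, log2 fold change -0.40 ± 0.08, adjusted p = 0.00736), while Ddx3y on the same chromosome measured 1078, 1125 and 1127 after morphine and 995, 984 and 1032 after PBS and did not pass (0.15 ± 0.05, adjusted p = 0.0632).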
